A study of Mus musculus with 6 samples.

Results

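Transcripts of the Notch pathway were compared between EGFP+ and EGFP- stromal cells of the inflamed mouse colon. The genes were chosen by symbol and are 10 of the 20327 symbols counted: the receptors *Notch1*, *Notch2* and *Notch3*, the ligands *Jag1* and *Jag2*, the transcriptional targets *Hes1*, *Hey1*, *Hey2* and *Heyl*, and the target *Nrarp*. All 10 were present in the count tables, and 8 had enough tags to be tested.

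The study asked how colonic cells that switch on *Il11* during colitis differ from their EGFP- neighbours. Both groups came from C57BL/6 mice with the *Il11-Egfp* transgene, a bacterial artificial chromosome with *Egfp* placed in the second exon of *Il11*, aged 9 to 15 weeks. Dextran sulfate sodium (DSS), which injures the colonic epithelium, was given at 1.5% in the drinking water for 5 days, and the colon was digested on day 7. Live (DAPI-) cells negative for Ter119, CD45, CD31 and EpCAM, the surface markers of erythroid, hematopoietic, endothelial and epithelial cells, were split by EGFP, with 3 libraries in each group. All cells came from DSS-treated mice of this transgene, so there was no untreated group. Each library held 1022851 to 1169817 tags, where a tag is a read from the 5′ end of a polyA transcript.

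The label was checked by *Il11* itself. It had 28, 51 and 89 tags in the EGFP- libraries and 1357, 732 and 2658 tags in the EGFP+ libraries. The groups did not overlap, and *Il11* was 31.5-fold higher in EGFP+ cells (log2 fold change 4.98, SE 0.393; adjusted p = 1.01e-07, edgeR's quasi-likelihood test, Benjamini-Hochberg adjusted over 9334 genes). The gate is negative, so that it can hold any stromal cell, and the EGFP- libraries carried markers of pericytes, smooth muscle and interstitial cells of Cajal besides those of fibroblasts.

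Notch receptors are membrane proteins that are cleaved when a Jagged or Delta ligand on a neighbouring cell binds them. The released intracellular domain enters the nucleus, joins the DNA-binding protein RBPJ and a Mastermind coactivator, and switches on genes of the HES and HEY families of repressors. In the vessel wall NOTCH3 is the receptor typical of pericytes and smooth muscle cells, whereas NOTCH1 and NOTCH2 are made by many cell types, including the epithelium of the gut.

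Of the 8 tested members, 3 were called lower in EGFP+ cells (*Notch3*, *Heyl* and *Nrarp*) and 0 were called higher, where a call needed a change of more than 2-fold with an adjusted p below 0.05. Among all 9334 tested genes 6.37% were called lower and 3.44% higher. The quasi-likelihood test of edgeR gave 0 higher members also at an unadjusted p under 0.05, and DESeq2 called 0 higher and 3 lower. The called members entered the test through the group in which they were high. *Notch3* and *Nrarp* reached the 10 tags required in the 3 EGFP- libraries and in 0 EGFP+ libraries, and *Heyl* in 3 and 1. The count of called members is therefore a description of these genes. The EGFP+ libraries lay below all EGFP- libraries for the same 3 tested members and for *Hey2*, which had too few tags to be tested, beside 16.7% of the tested genes.

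Among the receptors, *Notch3* differed between the groups and *Notch1* and *Notch2* did not pass the test. *Notch3* (chr17:32120820-32166852 in GRCm38, minus strand) encodes the receptor of vascular mural cells. It had 69, 57 and 67 tags in the EGFP- libraries and 4, 0 and 7 tags in the EGFP+ libraries. All EGFP- libraries were high and all EGFP+ libraries low, without overlap, and EGFP+ replicate 2 had no tag. Its level was 58.2 ± 6.69 normalized CPM (tags scaled to a common library size by TMM; SD, n = 3) in EGFP- cells and 3.64 ± 3.38 (SD, n = 3) in EGFP+ cells. It was 15.3-fold lower in EGFP+ cells (log2 fold change −3.94, SE 0.426, 95% interval −4.83 to −3.04; adjusted p = 2.98e-06, edgeR's quasi-likelihood test). Without EGFP+ replicate 3, the library with 7 tags, the log2 fold change was −4.73. In bulk RNA, fewer *Notch3*-expressing cells and less *Notch3* RNA per cell cannot be told apart.

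*Notch1*, the receptor known for its part in T cell and epithelial fate, had 36, 28 and 36 tags in the EGFP- libraries and 36, 38 and 18 tags in the EGFP+ libraries. EGFP+ replicate 3 was the lowest and the other EGFP+ libraries were the highest after scaling, so the groups overlapped. Its level was 30.1 ± 4.02 normalized CPM (SD, n = 3) in EGFP- cells and 31.3 ± 12.2 (SD, n = 3) in EGFP+ cells, and the 95% interval of its log2 fold change ran from −0.58 to 0.67. *Notch2*, a receptor expressed broadly in mesenchyme, had 137, 157 and 129 tags in the EGFP- libraries and 117, 96 and 165 tags in the EGFP+ libraries. Its groups overlapped over most of their range. The log2 fold change of *Notch2* was −0.02 with an interval of −0.43 to 0.39. Both intervals lay within a fold change of 2 in either direction. Whether *Notch3* differed from the other receptors in its fold change was not tested.

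The Jagged ligands sit on the surface of the cell that sends the signal. *Jag1* had 54, 39 and 39 tags in the EGFP- libraries and 30, 36 and 24 tags in the EGFP+ libraries. EGFP- replicate 1 was the highest, while EGFP+ replicate 2 reached into the EGFP- range after scaling. The mean was 40.1 ± 10.2 normalized CPM (SD, n = 3) in EGFP- cells and 30.4 ± 6.94 (SD, n = 3) in EGFP+ cells, a log2 fold change of −0.40 (SE 0.267, 95% interval −0.96 to 0.16) that did not pass the test (adjusted p = 0.383, edgeR's quasi-likelihood test). *Jag2*, the other Jagged ligand, had 1 tag in EGFP- replicate 1 and 0 tags in each of the other libraries. It was not detectable beyond the floor of 3 tags, which stood at 2.46 to 3.18 normalized CPM, and no fold change is given. Such floors and the intervals of tag ratios cover counting error only, whereas edgeR's intervals include the spread between libraries.

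**Figure D1:**
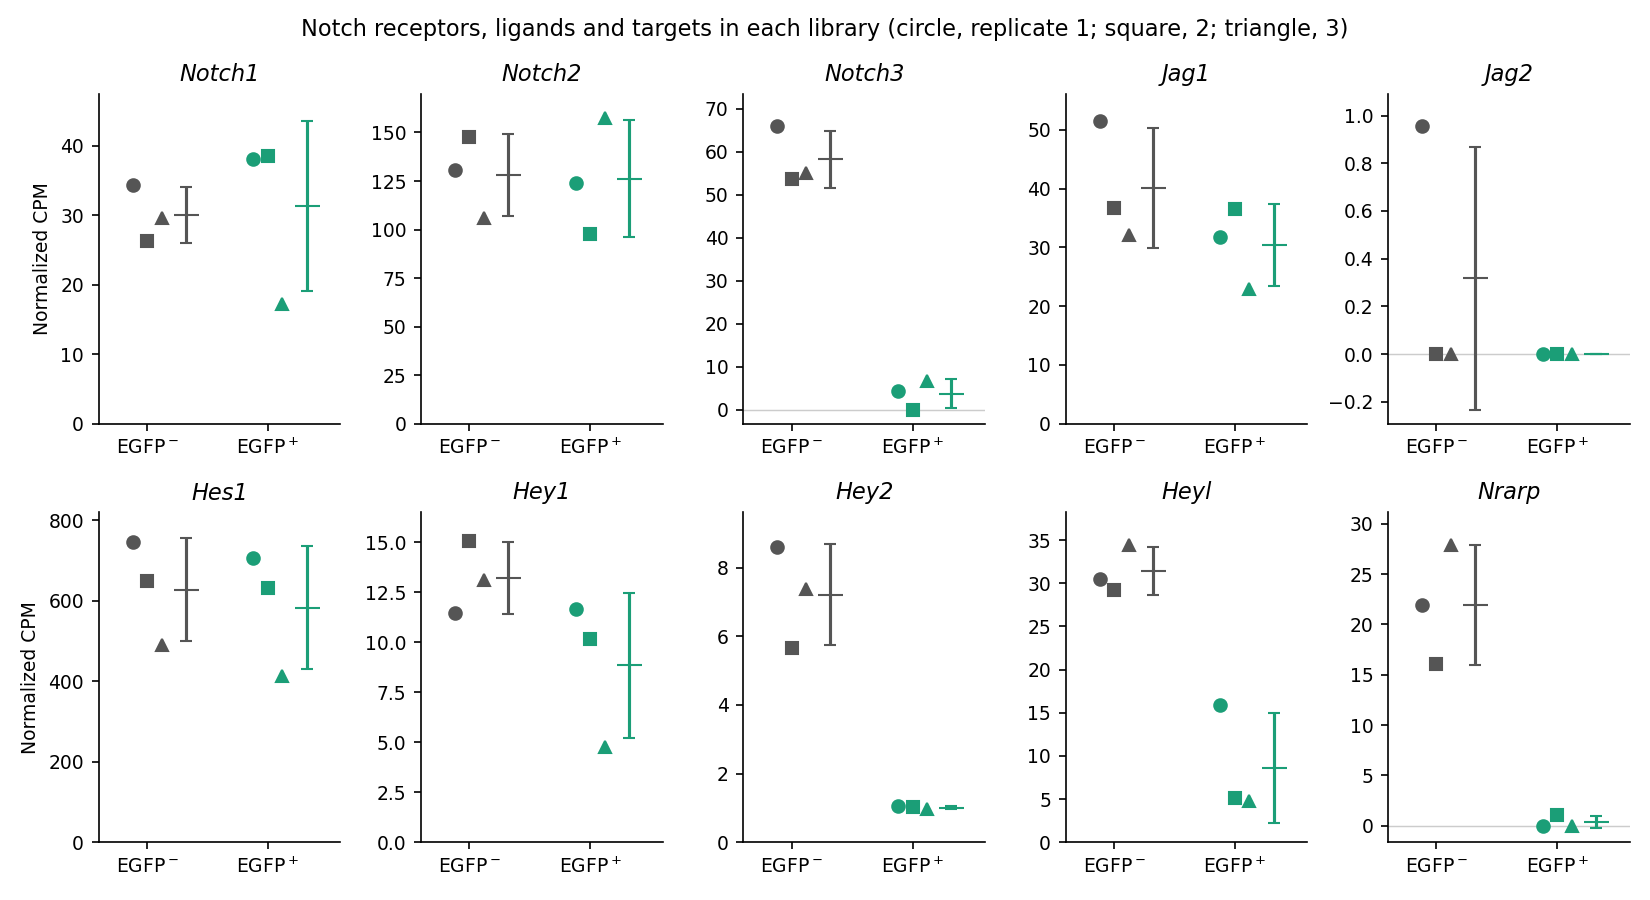
Normalized CPM of the 10 members in each library (vertical axis from 0 or just below it, scaled for each gene), with EGFP- cells in gray, EGFP+ cells in green, and the mean and SD of 3 libraries beside the points. *Notch3*, *Hey2*, *Heyl* and *Nrarp* lie apart between the groups, and the points of *Notch1*, *Notch2*, *Jag1*, *Jag2*, *Hes1* and *Hey1* overlap.

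Among the HES and HEY targets, *Hes1* and *Hey1* had overlapping groups, and *Hey2* and *Heyl* did not. *Hes1* encodes a basic helix-loop-helix repressor that is a target of Notch in many tissues and also answers to other signals. It had 780, 688 and 596 tags in the EGFP- libraries and 666, 621 and 432 tags in the EGFP+ libraries. In each group replicate 1 was the highest and replicate 3 the lowest. The ranges overlapped, although each EGFP+ library was below the EGFP- library of the same number after scaling, as for *Jag1*. With the replicate number as a block, *Hes1* and *Jag1* did not pass the test (adjusted p = 0.611 and 0.301, edgeR's quasi-likelihood test). With 627 ± 129 normalized CPM (SD, n = 3) in EGFP- cells and 583 ± 153 (SD, n = 3) in EGFP+ cells, the log2 fold change was −0.11 (95% interval −0.54 to 0.32).

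*Hey1*, a repressor of the HEY family active in the developing vasculature, had 12, 16 and 16 tags in the EGFP- libraries and 11, 10 and 5 tags in the EGFP+ libraries. EGFP+ replicate 1 lay just above EGFP- replicate 1 after scaling, so the groups overlapped. The levels were 13.2 ± 1.81 and 8.86 ± 3.62 normalized CPM (SD, n = 3), and the log2 fold change of −0.59 had an interval from −1.45 to 0.28, wide enough at this depth to hold both no change and a fold change over 2.

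*Heyl* (chr4:123233556-123249875, plus strand), a HEY family repressor found in vascular smooth muscle, had 32, 31 and 42 tags in the EGFP- libraries and 15, 5 and 5 tags in the EGFP+ libraries. All EGFP+ libraries were below all EGFP- libraries, and EGFP+ replicate 1 stood above its 2 fellow libraries. Its level was 31.4 ± 2.74 normalized CPM (SD, n = 3) in EGFP- cells and 8.58 ± 6.34 (SD, n = 3) in EGFP+ cells. *Heyl* was 3.69-fold lower in EGFP+ cells (log2 fold change −1.88, SE 0.384, 95% interval −2.69 to −1.08; adjusted p = 0.00187, edgeR's quasi-likelihood test). Without EGFP+ replicate 1 the log2 fold change was −2.64.

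*Hey2* (chr10:30832359-30842801, minus strand), a repressor that acts downstream of Notch in arteries and the heart, had 9, 6 and 9 tags in the EGFP- libraries and 1 tag in each EGFP+ library. The groups did not overlap, although no library reached 10 tags and the gene was left out of the test. Its level was 7.21 ± 1.48 normalized CPM (SD, n = 3) in EGFP- cells and 1.01 ± 0.0533 (SD, n = 3) in EGFP+ cells, and its exact two-sided permutation p was 0.1, the smallest that 3 libraries against 3 allow. With 24 tags against 3, the scaled tag ratio of EGFP- to EGFP+ cells was 7.16 with an exact 95% counting interval of 2.17 to 37.1. When no filter was applied, *Hey2* was called lower (log2 fold change −2.66, adjusted p = 0.0196, edgeR's quasi-likelihood test).

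*Nrarp* (chr2:25180758-25183339, plus strand), a gene with 1 exon, encodes an ankyrin repeat protein that is induced by Notch and limits Notch signaling by acting on the complex of RBPJ and the intracellular domain. It had 23, 17 and 34 tags in the EGFP- libraries and 0, 1 and 0 tags in the EGFP+ libraries. All EGFP- libraries were above the floor and all EGFP+ libraries under it, at 22.0 ± 5.95 and 0.338 ± 0.586 normalized CPM (SD, n = 3). With 74 tags against 1, the scaled tag ratio of EGFP- to EGFP+ cells was 66.2, with an exact 95% counting interval of 11.5 to 2651. *Nrarp* was called lower (adjusted p = 1.58e-05, edgeR's quasi-likelihood test), but its fitted log2 fold change rests on the single EGFP+ tag and moved from −5.61 to −7.56 without EGFP+ replicate 2.

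**Figure D2:**
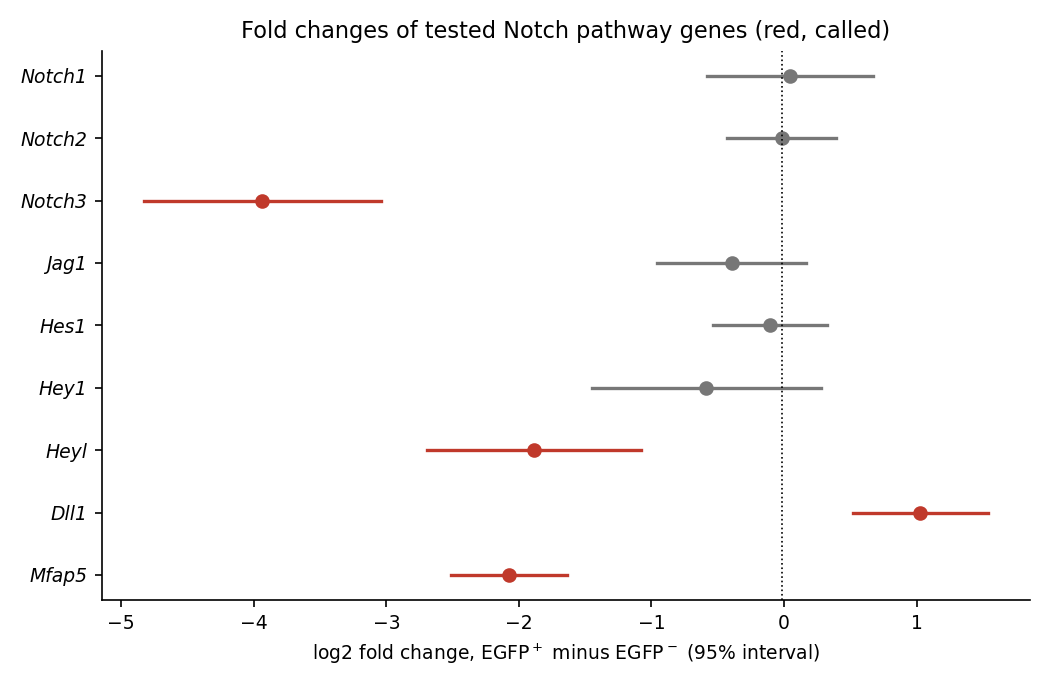
Fitted log2 fold changes of EGFP+ minus EGFP- cells (horizontal axis) with 95% intervals for tested members and called pathway genes with more than 3 tags in each group; red marks a call and the dotted line the median of all tested genes, −0.01. The intervals of *Notch3*, *Heyl* and *Mfap5* lie below the line and that of *Dll1* above it.

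The other genes of the pathway were taken from lists of receptors and ligands, sugar-adding enzymes, cleavage enzymes, nuclear partners, trafficking and turnover genes and further HES genes. Of 82 listed genes 61 were tested, of which 1 was called higher and 1 lower, with a median log2 fold change of 0.04 beside −0.01 for all tested genes. The 8 tested members had a median of −0.49, a description for the reason given with their count. The gene called higher was *Dll1*, a Delta ligand, which had 33, 43 and 32 tags in the EGFP- libraries and 46, 76 and 77 tags in the EGFP+ libraries. All EGFP+ libraries were above all EGFP- libraries, and the fold change was 2.04 (log2 1.03, SE 0.242; adjusted p = 0.00599, edgeR's quasi-likelihood test), just past the threshold of 2. *Dll1* fell short of that threshold at a log2 fold change of 0.95 with scaling by library size only, 0.99 with a filter of 30 tags, 0.88 without EGFP- replicate 3, 0.91 without EGFP+ replicate 2 and 0.95 without EGFP+ replicate 3.

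The gene called lower was *Mfap5*, which encodes a microfibril protein that can bind Jagged ligands and Notch. Of the tested genes on the list of other receptors and ligands, *Mfap5* had the most tags. It had 138, 179 and 216 tags in the EGFP- libraries and 29, 33 and 51 tags in the EGFP+ libraries. The groups did not overlap, and *Mfap5* was 4.21-fold lower in EGFP+ cells (log2 fold change −2.07, SE 0.209; adjusted p = 1.25e-06, edgeR's quasi-likelihood test). *Notch4* and *Dll4*, the receptor and ligand typical of endothelium, had at most 1 tag in any library.

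Of the sugar-adding enzymes, which set how receptors respond to ligands, 8 were tested and edgeR called 0 in either direction. Cleavage enzymes gave 0 calls among 9 tested genes, and the interval of *Adam10*, the sheddase with the most tags of that list, was 0.01 to 0.69 for the log2 fold change. The nuclear list, with RBPJ and its partners, gave 0 calls among 20 genes. Its most counted gene, the corepressor *Ncor1*, had an interval of −0.36 to 0.29. Trafficking and turnover genes gave 0 calls among 19, with an interval of −0.53 to 0.19 for the ubiquitin ligase gene *Nedd4*, and *Poglut3*, an O-glucosyltransferase gene and the most counted of the sugar-adding list, had −1.003 to 0.13. At an unadjusted p under 0.05 these lists held 1 and 0, 2 and 0, 3 and 1, and 1 and 1 genes, higher and lower, in the order sugar-adding, cleavage, nuclear and trafficking, and DESeq2 called 0 in each list. Of the further HES genes 2 were tested, 0 were called by edgeR or DESeq2, and *Bhlhe40*, the most counted, had a log2 fold change of 0.63 with an interval of 0.22 to 1.04, under the fold threshold (adjusted p = 0.0358, edgeR's quasi-likelihood test).

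*Notch3*, *Heyl*, *Hey2* and *Nrarp* were lower beside many, though not all, markers of mural cells, the pericytes and smooth muscle cells around vessels and in the gut wall. Summed over 10 pericyte markers, the EGFP- libraries held 2677, 2315 and 2130 normalized CPM and the EGFP+ libraries 1076, 910.7 and 811.6. The groups did not overlap. Of the 9 tested pericyte markers 6 were called lower and 0 higher, namely *Rgs5*, *Cspg4*, *Mcam*, *Cox4i2*, *Ndufa4l2* and *Anpep*, while 2 had an unadjusted p under 0.05 in the higher direction and DESeq2 called 0 higher. These 2, *Kcnj8* and *Abcc9*, also had adjusted p of 0.0394 and 0.0167 by edgeR's quasi-likelihood test, and missed a call by their fold changes of 1.64 and 1.585. The most abundant, *Rgs5*, a regulator of G protein signaling, had 1951, 1700 and 1800 tags in the EGFP- libraries and 186, 174 and 206 tags in the EGFP+ libraries. Without *Rgs5*, a sum taken after seeing the data, the other 9 pericyte markers came to 814.4, 713.2 and 652 normalized CPM in EGFP- cells and 878.6, 734.1 and 615.1 in EGFP+ cells. These overlapped, so the lower sum of the list rests on *Rgs5*. The remaining sum holds *Abcc9* and *Kcnj8*, at means of 262.9 and 109.6 normalized CPM in EGFP- cells and 416.6 and 179.6 in EGFP+ cells. Of the 9 tested markers, 7 had a negative log2 fold change, *Rgs5* among them, and 2 a positive one.

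Smooth muscle markers summed to 2769, 3413 and 4286 normalized CPM in the EGFP- libraries and 141, 207.1 and 393.9 in the EGFP+ libraries, 14.1-fold lower by the means. Of 10 tested 9 were called lower, *Myh11*, *Acta2*, *Tagln*, *Myl9*, *Actg2*, *Des*, *Lmod1*, *Cnn1* and *Synpo2*, of which *Myh11*, the smooth muscle myosin, was the most abundant. No marker of either list was at 0 in all libraries. Among the called markers *Cox4i2*, *Ndufa4l2* and *Cnn1* reached 10 tags in 3 EGFP- and 0 EGFP+ libraries, so that, as for the members, the counts of called markers describe these genes, beside 6.37% called lower among all tested genes. The part of mural cells in the lower *Notch3*, *Heyl*, *Hey2* and *Nrarp* was not tested.

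Markers of interstitial cells of Cajal, the pacemaker cells of the gut muscle, also differed. Led by *Ano1*, they summed to 271.2, 167.7 and 257.8 normalized CPM in EGFP- cells and 21.2, 20.3 and 50.5 in EGFP+ cells. The groups did not overlap, and the part of these cells in the results for Notch genes was not tested.

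Endothelial markers, led by *Esam*, summed to 76.4, 92.3 and 96.9 normalized CPM in EGFP- cells and 23.3, 13.2 and 17.2 in EGFP+ cells, and 6 of the 10 found in the tables were at or under 3 tags in every library, among them the defining *Pecam1*, with 1 tag in all. Immune markers, led by *Cd68*, summed to at most 26.4 normalized CPM in any library, with overlapping groups. Epithelial markers, led by *Lgals4*, summed to 31.51, 25.44 and 52.55 in EGFP- cells and 9.539, 13.2 and 23.84 in EGFP+ cells, and mesothelial markers, led by *Wt1*, to 13.37, 4.711 and 15.6 against 0, 0 and 1.907. Both sums were lower in all EGFP+ libraries. In each library most epithelial tags were those of *Lgals4*, with 29, 25 and 40 in EGFP- cells and 7, 10 and 18 in EGFP+ cells. At or under 3 tags in every library were 5 of the 9 epithelial markers found and 2 of the 4 mesothelial ones. Fibroblast markers, led by *Dcn*, were the highest sums of all lists in both groups. Of 10 tested 2, *Col3a1* and *Pdpn*, were called higher and 0 lower by edgeR, and DESeq2 also called 2 higher and 0 lower, with 5 higher and 2 lower at an unadjusted p under 0.05 by edgeR. *Dpt* and *Lum*, the 2 lower ones, missed a call by their fold changes of 1.939 and 1.553 (adjusted p = 0.000826 and 0.0378, edgeR's quasi-likelihood test), as did *Dcn* and *Thy1* in the higher direction (1.59 and 1.844; 0.0462 and 0.00832). The sums came to 24660, 24550 and 27730 normalized CPM in EGFP- cells and 43120, 35510 and 32040 in EGFP+ cells, with *Dcn* and *Col3a1* adding the most to the difference between the means.

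**Figure D3:**
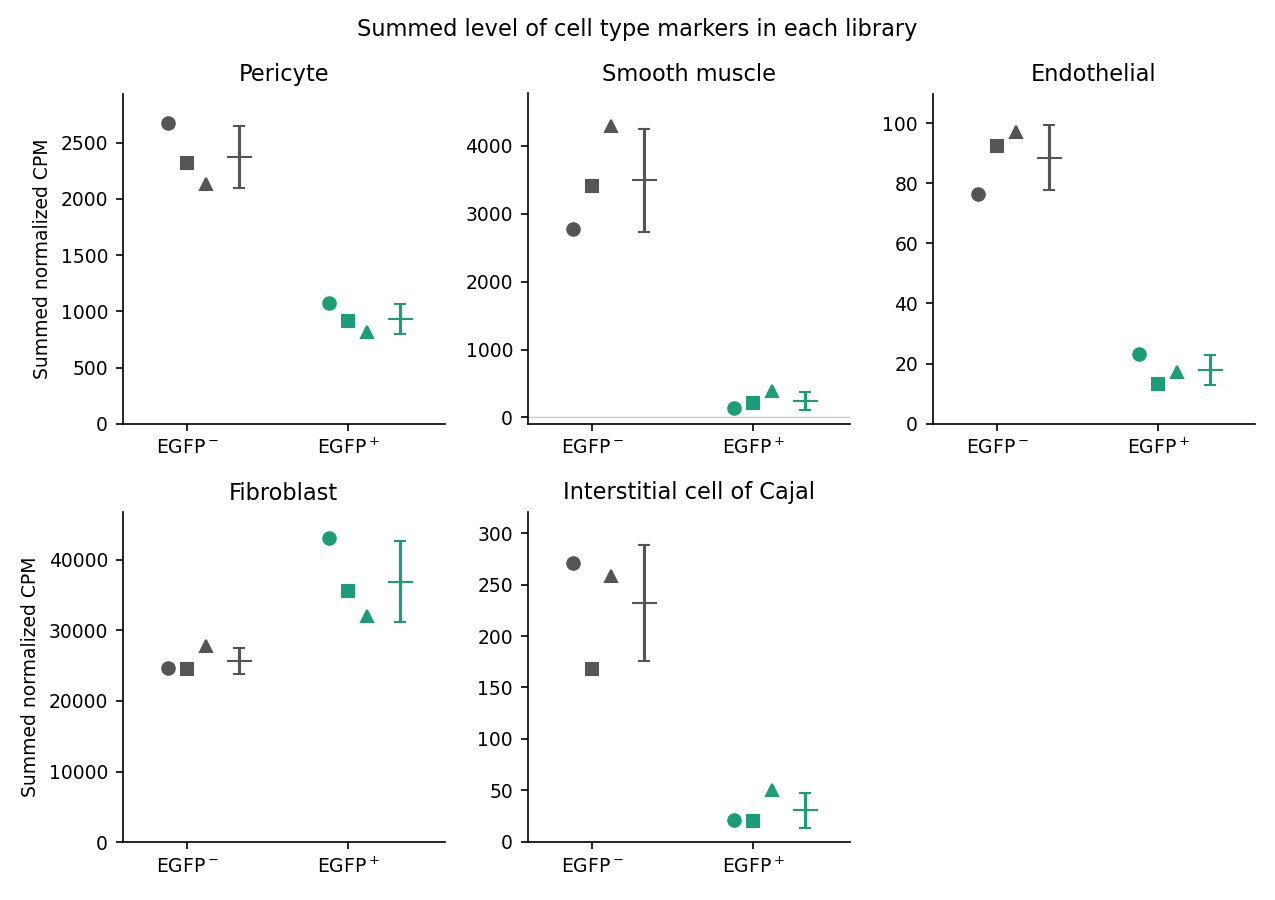
Summed normalized CPM of the markers of each named cell type (vertical axis) in each library, with the mean and SD of 3 libraries beside the points (gray, EGFP-; green, EGFP+; circle, square and triangle for replicates 1, 2 and 3). Pericyte, smooth muscle, endothelial and Cajal sums are lower in all EGFP+ libraries, and fibroblast sums are higher.

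For each called member the 3 tested genes with the most similar profile over the 6 libraries were found by Euclidean distance between centred log2 values, among 9333 other genes. Those nearest to *Notch3* were *Dtna* (distance 1.08), *Myom1* (1.16) and *Hhip* (1.16), encoding a dystrophin-associated protein, a sarcomere protein and an inhibitor of Hedgehog ligands. *Notch3* and all 3 neighbours had no tag in EGFP+ replicate 2. Nearest to *Heyl* were *St6gal1* (0.485), *Tek* (0.564) and *Trpc6* (0.676), of which *Tek* encodes the angiopoietin receptor and *Trpc6* a cation channel. Like *Heyl*, each was highest in replicate 1 among the EGFP+ libraries. Nearest to *Nrarp* were *Pcp4* (0.883), *Des* (distance 1) and *Cyp4b1* (1.09), of which *Des* encodes the muscle filament desmin. *Nrarp*, *Pcp4* and *Cyp4b1* had at most 1 tag in any EGFP+ library. Because the neighbours were picked by their profiles over these same libraries, such shared low or high libraries only describe the choice.

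Promoter sequences from RefSeq (GRCm38.p6) were found for 7 of the 10 members, all but *Hes1*, *Hey1* and *Heyl*. They were searched on both strands from 250 bases before to 30 bases after the start for GTGGGAA, the stretch bound by RBPJ, for TGGGAA, which lies within it, and for CACGTG and CACGCG, motifs of the HES and HEY repressors. Of 32851 promoters of this length 5.94%, 23.8%, 6.79% and 8.65% held them, in that order. The promoters of the lower members in the table are shown, because all 3 genes were lower without overlap. *Hey2* (chr10:30842754-30843033, minus strand) held GTGGGAA at 2 places, where 0.234% of all promoters held it at 2 or more, and capitals mark them, of which the first is on the opposite strand.
Hey2: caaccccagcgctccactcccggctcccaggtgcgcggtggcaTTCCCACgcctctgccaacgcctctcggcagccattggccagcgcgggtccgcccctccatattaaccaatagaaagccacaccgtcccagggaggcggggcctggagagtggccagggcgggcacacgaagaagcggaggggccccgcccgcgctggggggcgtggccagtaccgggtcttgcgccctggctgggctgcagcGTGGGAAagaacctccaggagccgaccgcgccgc
*Nrarp* (chr2:25180508-25180787, plus strand) held CACGTG, in capitals, and *Notch3* (chr17:32166861-32167140, minus strand) held no match to any of the 4 motifs in this window.
Nrarp: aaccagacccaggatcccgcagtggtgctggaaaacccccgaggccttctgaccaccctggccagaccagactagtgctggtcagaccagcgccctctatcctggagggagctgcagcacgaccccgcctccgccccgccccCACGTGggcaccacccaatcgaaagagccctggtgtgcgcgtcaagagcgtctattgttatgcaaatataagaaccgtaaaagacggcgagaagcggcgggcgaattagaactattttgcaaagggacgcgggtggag
Notch3: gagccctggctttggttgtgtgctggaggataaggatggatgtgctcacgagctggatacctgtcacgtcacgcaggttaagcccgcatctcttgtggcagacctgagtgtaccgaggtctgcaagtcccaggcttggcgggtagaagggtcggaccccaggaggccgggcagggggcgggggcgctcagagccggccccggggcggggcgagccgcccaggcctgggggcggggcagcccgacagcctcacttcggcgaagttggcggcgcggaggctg
GTGGGAA was found in no other member with a promoter in the table, and CACGCG was found in *Notch2*, *Jag1* and *Jag2*. A match describes the letters only, and binding was not measured here.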

How the data were processed

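EGFP+ and EGFP- cells of 3 mice, per the study's methods, gave 3 libraries per group by 5′Tag-seq. The authors trimmed reads with Cutadapt 1.18, aligned them to mm10 RefSeq transcripts with Bowtie2 2.2.5 in one orientation, and deposited raw tag counts per gene symbol without normalization; the use of reads matching several genes and of molecular identifiers is not given in the sources used here. As printed, their filter drops genes with 10 or more tags, which was read here as keeping them.

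Here a gene was tested if 3 or more of the 6 libraries had 10 tags or more (9334 genes), in R 4.3.3 with edgeR 4.0.16 (TMM scaling, glmQLFit and glmQLFTest), and called at a change of more than 2-fold with a Benjamini-Hochberg adjusted p below 0.05. The same steps were tested on simulated data. Spearman correlations were 0.913 to 0.933 within groups and 0.83 to 0.869 between them. Same-numbered libraries deviated together from their group means (r = 0.23, 0.19 and 0.26 over 5063 genes), so the replicate number was used as a block in an alternative. Whether the number marks a mouse or another shared step, such as a sort, cannot be told from these correlations. Further alternatives were RLE scaling, iterative TMM under either edgeR test (quasi-likelihood, exact), library size only, DESeq2 1.42.0, no filter, a filter of 30 tags, the adjusted p alone, and leaving out each library in turn with the genes tested in 6 libraries.

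Named genes were the 10 members; from the other pathway lists each called gene and the tested gene with the most tags; from the marker lists the most abundant gene, markers at 0 in all libraries and called pericyte and smooth muscle markers; and 3 nearest genes for each called member. *Kcnj8*, *Abcc9*, *Notch4*, *Dll4*, *Pecam1*, *Col3a1*, *Pdpn*, *Dpt*, *Lum* and *Thy1* were chosen after their values were seen. The members and lists were chosen with earlier results of these data known. *Dlk2*, *Mfng*, *Rbpjl*, *Hes2*, *Helt*, *Cdh5*, *Cldn5*, *Adgre1* and *Cdh1* were not analysed here. The result of 1 marker list and the names of the genes added by the adjusted p alone are not reported here.

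Positions come from GENCODE mouse release 21 (GRCm38). Of the 50-nt windows in the first 300 nt of member transcripts, 0 occurred in transcripts of another gene.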

Additional observations from a re-analysis of the deposited data

How the results depend on the processing

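The calls of *Notch3* and *Heyl* held in all alternatives, with log2 fold changes of −4.73 to −3.37 and −2.64 to −1.59 and adjusted p of at most 4.95e-05 and 0.0177. That of *Nrarp* held in all in which it was tested (−7.56 to −5.12; at most 0.000159). The filter of 30 tags, which left *Nrarp* and *Hey1* untested, gave 2 members called lower, and no filter gave 4, with *Hey2* added. Each other alternative gave 3. Members called higher numbered 0 in each alternative.

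With the replicate block 337 genes were called higher and 648 lower, and it changed no call among the members or other pathway genes. All genes called higher and lower numbered 208 and 326 with the filter of 30 tags, which tests 5275 genes, and 638 were higher with the adjusted p alone. Other pathway genes called higher numbered 0 with library size only, 0 with the filter of 30 tags, 5 with the adjusted p alone and 0 to 1 when a library was left out; without EGFP+ replicate 2 the gene called was *Ctbp2* instead of *Dll1*. *Ctbp2* was named after its values were seen. Library size only left the median of all tested genes at −0.095.

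Of the members without a call, *Notch1* changed sign to −0.042 with library size only and *Notch2* to 0.0225 without a filter. With a library left out, *Notch1* ranged from −0.13 to 0.35, *Notch2* from −0.21 to 0.14 and *Hes1* from −0.26 to 0.0915. The cause was not tested.

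Depth limits *Hey2*, *Jag2* and, in EGFP+ cells, *Nrarp*, each with at most 3 tags in that group. The filter, the sort and the choice of genes with results known also bear on the counts of called members.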
